A study of Mus musculus with 10 samples.

Results

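Chromosome 10 of the mouse was described here through 482 genes whose RNA was measured in 10 cultured cell clones. The members are the protein-coding genes of chromosome 10 in GENCODE M21 (build GRCm38) with a mean of at least 8 CPM (gene counts divided by library size and rescaled) over the 10 libraries. They are 482 of the 801 protein-coding chromosome 10 genes, and of 26401 genes of all kinds in the count table. Just inside the minimum were L3mbtl3 (8.08 CPM) and Vsir (8.11 CPM), and just outside it were Adat2 (7.78 CPM) and Rhobtb1 (7.64 CPM). A mean over both groups also admits genes that reach the minimum in 1 group only: by their group means 13 members did so in the high group alone and 4 in the low group alone. All 482 members passed the expression filter of the tests. The chromosome itself was chosen with its shifts between clones already known, so its shifts are given as a description and without a test.

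Every clone is a line of immortalized mouse embryonic fibroblasts (MEF, connective tissue cells from the embryo), grown with uridine in the medium. The name C57Bl/6N stands under the treatment tag of the labels and was read as the strain. All clones carry the genotype m.5024C>T, a point mutation of mitochondrial DNA, and none is free of it. Cells hold many copies of mitochondrial DNA, and heteroplasmy is the share of mutant copies. The 5 libraries named high 1 to high 5 come from 5 clones of high heteroplasmy, and those named low 1 to low 5 from 5 clones of low heteroplasmy, each with a clone number of its own. Each library is 1 clone, so what is particular to a clone and what goes with its heteroplasmy cannot be told apart within a library. Polyadenylated RNA was sequenced, with 17318372 to 28208576 counts per library.

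In diploid cells each autosome is present as a pair, and cells kept in culture for long often gain or lose whole chromosomes or arms. The RNA of most genes tends to follow the number of gene copies, while feedback on single genes can hold their RNA level steady or move it by far more. A change of copy number moves neighbouring genes of all functions by a like, small factor, whereas control of single genes acts on each one separately. Chromosome 10 carries genes of widely differing use, among them the translation factor Eef2, the ATP synthase gene Atp5b, the cell cycle kinases Cdk1, Cdk2 and Cdk4, the p53 regulator Mdm2, the growth factor Kitl and the collagens Col6a1, Col6a2, Col10a1 and Col18a1. DNA copy number was not analysed here, and only RNA levels are given.

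The 250 bases upstream of a RefSeq start site (GRCm38.p6) are shown for 4 members that mark the extremes of the results below. They were chosen after their values were seen. Col10a1 varied most among all members relative to its chromosome, Slc18b1 differed between the groups at a moderate level, Eef2 had the highest level, and Map2k2 kept closest to the chromosome among members of at least 100 CPM. Capitals mark the TATA box letters TATAAA, searched on both strands. The windows lie at chr10:34389731-34389980 (Col10a1), chr10:23796736-23796985 (Slc18b1), chr10:81176381-81176630 (Eef2) and chr10:81105665-81105914 (Map2k2), all on the plus strand.
Col10a1: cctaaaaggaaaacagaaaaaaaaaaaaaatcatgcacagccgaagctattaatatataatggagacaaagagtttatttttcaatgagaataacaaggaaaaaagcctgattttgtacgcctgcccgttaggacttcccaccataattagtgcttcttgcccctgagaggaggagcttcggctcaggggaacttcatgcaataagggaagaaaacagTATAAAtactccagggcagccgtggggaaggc
Slc18b1: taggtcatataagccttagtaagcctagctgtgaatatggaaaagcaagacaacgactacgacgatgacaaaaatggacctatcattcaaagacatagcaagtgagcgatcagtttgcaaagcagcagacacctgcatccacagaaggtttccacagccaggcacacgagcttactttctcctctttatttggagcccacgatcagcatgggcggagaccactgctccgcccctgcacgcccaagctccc
Eef2: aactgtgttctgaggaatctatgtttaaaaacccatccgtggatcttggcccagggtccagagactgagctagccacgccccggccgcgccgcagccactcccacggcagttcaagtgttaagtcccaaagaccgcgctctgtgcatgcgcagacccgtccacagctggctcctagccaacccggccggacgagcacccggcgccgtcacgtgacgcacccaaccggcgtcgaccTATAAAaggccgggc
Map2k2: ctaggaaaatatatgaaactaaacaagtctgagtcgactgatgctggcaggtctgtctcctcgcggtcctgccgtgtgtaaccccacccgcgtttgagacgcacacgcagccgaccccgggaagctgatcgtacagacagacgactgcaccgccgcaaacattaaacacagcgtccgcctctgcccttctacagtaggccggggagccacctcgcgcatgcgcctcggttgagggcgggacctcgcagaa

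The 4 upstream windows differ in composition. The Col10a1 window has 41.6% G and C with 5 CpG dinucleotides, and its TATAAA ends 26 bases before the window does. The Eef2 window has 62.8% G and C with 23 CpG, and its TATAAA ends 9 bases before the window does. Those of Slc18b1 (50% G and C, 9 CpG) and Map2k2 (59.6%, 23 CpG) hold no TATAAA on either strand. RefSeq upstream windows were matched to 410 of the 482 members, and 25 of these (6.10%) hold TATAAA, against 3504 of 27025 upstream windows of the whole table (13.0%) and 427 of 7679 of protein-coding genes at 8 CPM or more on all chromosomes (5.56%). Among members that departed from the chromosome by 2-fold in at least 1 library, described further on, 8 of 80 matched windows hold it (10.0%), and among the other members 17 of 330 (5.15%).

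The RNA level of chromosome 10 as a whole differed from clone to clone, by up to 1.54-fold. For each member, the deviation in a library is its log2 CPM minus its median over the 10 libraries, and the shift of a library is the median deviation of the 482 members. The shift was 0.00 in high 1, -0.12 in high 2, 0.22 in high 3, 0.34 in high 4 and 0.42 in high 5 (log2). It was -0.20 in low 1, -0.02 in low 2, -0.16 in low 3, -0.19 in low 4 and 0.00 in low 5. High 3, high 4 and high 5 lay above all other libraries, while high 1 and high 2 lay among the low libraries, so the 2 groups overlapped.

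**Figure D1:**
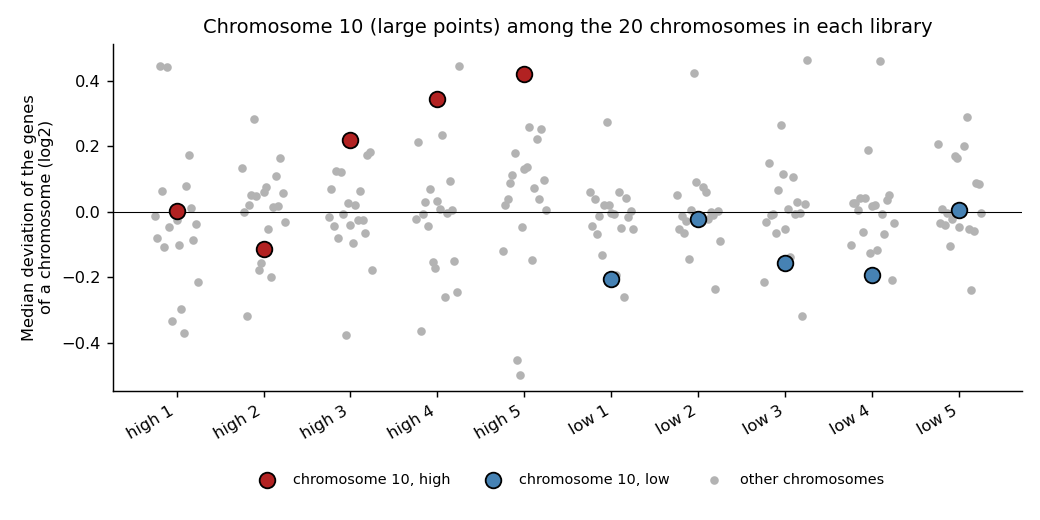
The y axis gives the median deviation of a chromosome's genes in a library (log2), the x axis the 10 libraries; the large points are chromosome 10 and the small grey points the other 19 chromosomes. Chromosome 10 is the highest of 20 in high 3 and high 5, and next to the lowest in low 1 and low 4.

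The shift covered most members in the clones where it was large. Members above their own median made up 88.6% in high 4, 84.4% in high 5 and 74.7% in high 3, against 50.2% in high 1 and 30.7% in high 2. In the low clones they made up 20.95% (low 1), 45.2% (low 2), 28.8% (low 3), 25.1% (low 4) and 51.2% (low 5). Compared directly, high 5 was higher than low 1 in 407 of 482 members, with a median difference of 0.66 (log2). High 5 was also higher than high 2, of the same group, in 429 of 482 members (89.0%, median difference 0.60), and than high 1 in 353 (73.2%, median difference 0.43). These pairs were picked after the shifts were seen, and each sets 1 library against 1 other, with no replicate.

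Between the groups, the shift averaged 0.17 ± 0.23 over the high clones and -0.11 ± 0.10 over the low clones (log2, mean ± SD, n = 5 each), a difference of 0.29. The 5 high clones spanned 0.54 among themselves (1.45-fold) and the 5 low clones 0.21 (1.16-fold), so the difference between the groups was smaller than the span within the high group. With 1 library left out in turn, the difference ran from 0.23 (without high 5) to 0.35 (without high 2). A group difference of this size was not particular to chromosome 10. By the same measure it was 0.30 for chromosome 6 and 0.22 for chromosome 16, and -0.57 for chromosome 8 and -0.39 for chromosome 14. In bulk RNA, more cells with the gene's RNA and more RNA per cell cannot be told apart.

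Other chromosomes moved between clones as well. The SD of the shift over the 10 libraries was 0.22 for chromosome 10, the fifth largest of the 20 chromosomes, after chromosomes 8 (0.32), 14 (0.25), X (0.23) and 3 (0.23), and it was smallest for chromosome 17 (0.04). In high 5, where chromosome 10 was highest, chromosome 8 was lowest at -0.50. In high 4 chromosome X stood above chromosome 10, at 0.44. In low 4 chromosome 14 was highest at 0.46, with chromosome 10 next to the lowest. A fibroblast state was checked through 10 marker genes. Their summed level was 8415 to 18158 CPM in the high and 10529 to 12191 CPM in the low libraries, 1 of the 10 was under 1 CPM, and the markers Dcn and Lum, which lie on chromosome 10, were not among the members. Adipocyte markers summed to 39.97 to 148 CPM in the high and 11.8 to 24.7 CPM in the low libraries, and both adipocyte markers that could be tested rose, while 3 of 5 were under 1 CPM. Epithelial markers summed to 113 to 509 and 453 to 671 CPM, with 1 rise among 4 tested. Immune markers summed to 11.8 to 90.0 and 12.6 to 26.1 CPM (Ptprc at 0), neural markers to 39.2 to 182 and 34.9 to 93.4 CPM with 1 fall among 3 tested (Sox10 at 0), muscle markers to 4.15 to 24.7 and 2.39 to 5.24 CPM (Myog at 0) and endothelial markers to at most 1.71 CPM (Cdh5 at 0). The part of these cell states in the results was not tested.

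The shift ran along the whole chromosome. Members were taken in their order on the chromosome in 12 runs of 40, which leaves out the last 2. In high 3, high 4 and high 5 the median deviation was above 0 in 12 of 12 runs, with a lowest run of 0.07, 0.26 and 0.30 and a highest of 0.42, 0.44 and 0.56. In high 2, low 1, low 3 and low 4 it was above 0 in 0 of 12 runs, with a lowest run of -0.33, -0.30, -0.23 and -0.30. High 1, low 2 and low 5 went both ways, with 6, 4 and 8 runs above 0, between -0.19 and 0.10.

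**Figure D2:**
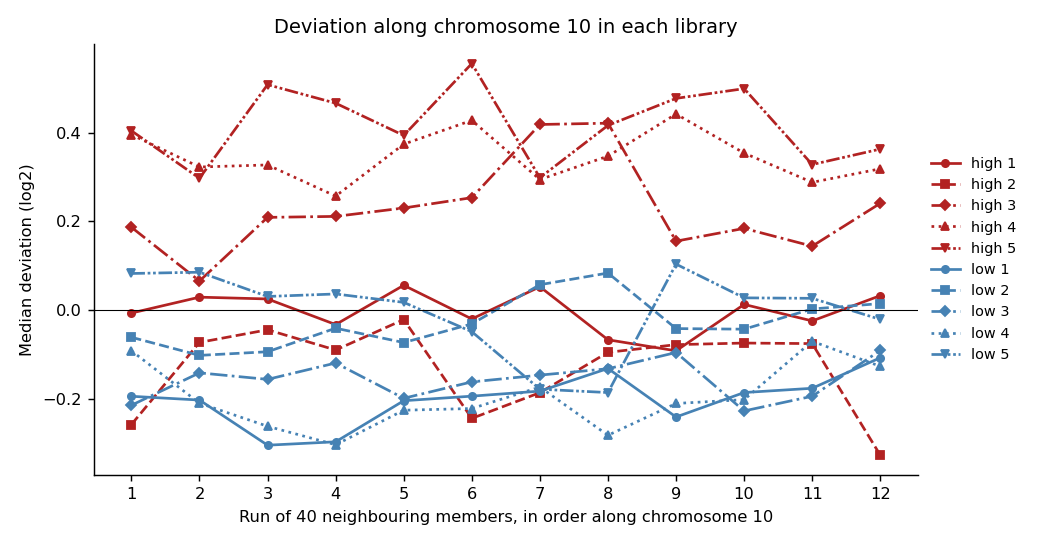
The y axis gives the median deviation of 40 neighbouring members (log2), the x axis the 12 runs in order along chromosome 10; each line is 1 library, red for high and blue for low. High 3, high 4 and high 5 stay above 0 in all 12 runs, and high 2, low 1, low 3 and low 4 below it.

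Windows of 10 Mb, which follow distance in place of gene number, showed the same sides. Of 11 windows with at least 20 members, 11 were above 0 in high 3, high 4 and high 5 and 0 in high 2, low 1 and low 4. Low 3 had 1 window above 0 of 11. The count was 6 in high 1, 4 in low 2 and 7 in low 5. In high 5 the windows ran from 0.29 to 0.63, in high 4 from 0.26 to 0.46 and in high 3 from 0.09 to 0.30. The 2 thinner windows, with 19 and 8 members, are left out of these counts, and in high 3 the one with 19 members was at -0.01.

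Genes of chromosome 10 that the member rule leaves out were looked at separately, each kind minus the same kind of genes on the other chromosomes. For 83 protein-coding genes at 1 to 8 CPM this difference was 0.13 in high 3, 0.23 in high 4 and 0.20 in high 5 (log2). For 24 genes that are not protein-coding it was 0.11, 0.24 and 0.29 in the same 3 clones. By the same measure the 482 members were at 0.23, 0.35 and 0.41. The genes outside the rule were thus on the same side as the members in these clones, and at a smaller size. In low 1, low 3 and low 4 both outside kinds were below 0, as the members were, at -0.01, -0.24 and -0.11 for the protein-coding and -0.16, -0.11 and -0.10 for the other genes. In the remaining clones the kinds did not all take 1 side. In high 2, where the members were at -0.12, the protein-coding genes were at -0.08 and the other genes at 0.03. In low 2 they were at 0.04 and -0.07, in high 1 at 0.15 and -0.14, and low 5, where the members were at 0.00, had -0.10 and -0.21.

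**Figure D3:**
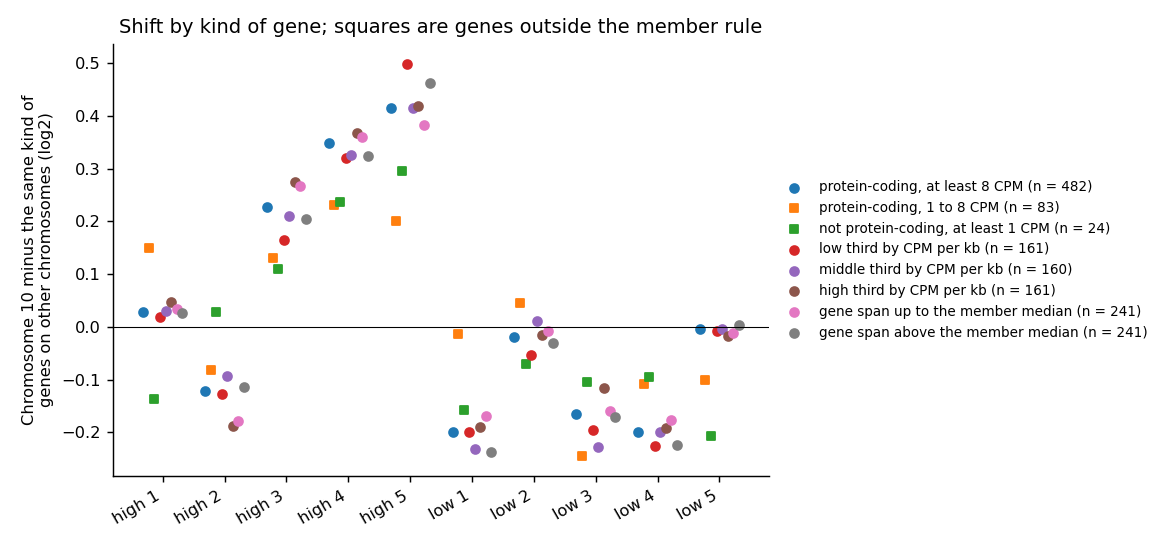
The y axis gives the median deviation of chromosome 10 genes minus that of the same kind of genes on the other chromosomes (log2), the x axis the 10 libraries; each colour is a kind of gene, and squares are the 2 kinds outside the member rule. In high 3, high 4 and high 5 all 8 kinds are above 0, but those not drawn as squares are all made of the same members.

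Among the members, level and gene size made little difference to the side of the shift. Split into 3 classes by level per kilobase of exon, the members of high 4 were 0.32 (low class), 0.33 (middle class) and 0.37 (high class) above the same class on other chromosomes (log2). In high 5 the low class was the highest, at 0.50, with the middle class at 0.41 and the high class at 0.42. In high 3 the classes were at 0.16, 0.21 and 0.27. Members with a gene span up to the median were at 0.38 in high 5 and those with a longer span at 0.46.

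Members varied less from clone to clone once the chromosome's shift was taken out. The median SD of a member over the 10 libraries was 0.39 (log2), and 0.31 once each library's chromosome 10 median was subtracted. The SD became smaller for 392 of 482 members (81.3%). Within the high group it went from 0.41 to 0.31 and became smaller for 386 members. Within the low group, where the shifts were smaller, it went from 0.29 to 0.26 and became smaller for 336. The subtracted median came from these same members, and other chromosomes treated alike narrowed too. Over the 10 libraries, the share of genes with a smaller SD ran from 60.05% (chromosome 15) to 88.9% (chromosome 8). It was 64.3% on chromosome 17, and above that of chromosome 10 also on chromosomes X (86.8%), 14 (83.3%) and 3 (82.9%). Among members of at least 100 CPM, Map2k2, a kinase of the MAP kinase cascade, followed its chromosome most closely. Its level was 258, 215, 337, 347 and 346 CPM in high 1 to high 5 and 228, 257, 239, 242 and 266 CPM in low 1 to low 5. Sar1a, a GTPase of vesicle export from the endoplasmic reticulum, was at 230, 226, 314, 300 and 328 CPM in the high and 198, 248.9, 230, 190 and 263 CPM in the low libraries. Map2k2 and Sar1a were chosen because they kept close to the chromosome median, and Ap3d1 came between them by this measure. Both were highest in high 3, high 4 and high 5, the 3 clones with the highest chromosome 10 shift, which follows from that choice. Neither strayed from the chromosome median by 2-fold in any library.

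In the comparison of the 2 heteroplasmy groups, most chromosome 10 members were higher on average in the high clones, by a small amount. The chromosome shift lay above the low range in high 3, high 4 and high 5 only, with high 1 at 0.00 and high 2 at -0.12. Members share the shift of their clone, so the counts below are not independent of one another. The median log2 fold change (high over low) was 0.29 over the members, with quartiles of 0.13 and 0.50, and 0.02 over all 12964 genes tested. It was above 0 for 420 of 482 members (87.1%), against 52.3% of all genes tested. Of the members, 26 rose and 2 fell at an edgeR p under 0.05 after Benjamini-Hochberg adjustment over all genes tested (quasi-likelihood test), against 1.99% rises and 2.87% falls among all genes tested. The 5 high values lay entirely above the 5 low values for 30 members and entirely below for 2, against 3% and 4.17% of all genes tested. At an unadjusted p under 0.05, 132 members (27.4%) were higher and 4 (0.83%) lower, against 10.6% and 10.98% of all genes tested. Of the 26 rises at the adjusted threshold, 6 were among the 13 members that reached the minimum in the high group alone, where the choice of members itself favours a call (Col10a1, Lrrc75b, Tmcc3, Rassf3, Vsir and Rab36), and the fall of Lrp11 was among the 4 of the low group. The other 465 members had 20 rises and 1 fall. Rab36 was named after its values were seen. The chromosome was chosen with this contrast known, so these counts describe it.

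These counts depended on single libraries. Leaving out low 1 gave 8 rises in place of 26, leaving out high 3 or low 3 gave 10 each, leaving out low 2 or low 4 gave 11 each, and leaving out low 5 gave 13. The 2 falls became 0 without high 3, low 1, low 3 or low 5, and 1 without high 2, high 5, low 2 or low 4. Low 2 and low 3 stood apart with 40900 and 8008 CPM of the ribosomal RNA-like transcript Gm42418, against at most 1614 CPM elsewhere, and its part in the result was not tested. Without both of them, 2 rises and 0 falls were called, those of Kitl (adjusted p = 0.0395) and Rassf3 (0.0469), while the difference of the chromosome shift was 0.31, against 0.29 with all libraries.

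A second fit asked which members differed between the groups by more than their chromosome did. It set each gene against its chromosome's median in the same library. The median log2 fold change of the members was then -0.01, and 48.1% were above 0. That chromosome median came from these same members, so both values were close to fixed in advance. In this fit 7 members rose and 2 fell (edgeR, adjusted p under 0.05), against 0.648% rises and 0.602% falls among all genes tested. At an unadjusted p under 0.05, 48 (9.96%) were higher and 25 (5.19%) lower, against 9.29% and 8.37% of all genes tested. The 9 called members were also called without the offset, and were Col10a1, Lrrc75b, Kitl, Tmcc3, Rassf3, Slc18b1 and 1 gene with a provisional name among the rises, and Glipr1 and Lrp11 among the falls. Of these, Col10a1, Lrrc75b, Tmcc3, Rassf3 and Lrp11 reached the CPM minimum in 1 group only, and 3 rises and 1 fall came from the 465 members that reached it in both. In GRCm38 they lie far apart: on the plus strand Lrp11 (ENSMUSG00000019796) at chr10:7589800-7625483, Slc18b1 (ENSMUSG00000037455) at chr10:23796986-23827968, Col10a1 (ENSMUSG00000039462) at chr10:34389981-34397085, Tmcc3 (ENSMUSG00000020023) at chr10:94311949-94590956 and Kitl (ENSMUSG00000019966) at chr10:100015630-100100416, and on the minus strand Lrrc75b (ENSMUSG00000046807) at chr10:75550123-75560330, Glipr1 (ENSMUSG00000056888) at chr10:111985448-112002631 and Rassf3 (ENSMUSG00000025795) at chr10:121410350-121476347.

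The count of 7 rises became 2 without high 3, low 1, low 2, low 3 or low 4, 3 without high 2 or low 5, and 4 without high 5. The 2 falls became 0 without high 2, high 3 or any 1 of the 5 low libraries, 1 without high 5, and 5 without high 1. Kitl and Rassf3 were called in 10 of 10 fits that left out 1 library, with and without the chromosome offset. With the offset, Lrrc75b and Glipr1 were called in 3 of these fits (without high 1, high 4 or high 5), Col10a1 in 2 (without high 1 or high 5), Tmcc3 and Lrp11 in 2 (without high 1 or high 4) and Slc18b1 in 2 (without high 1 or low 5). Without low 2 and low 3 together, 0 members were called in the fit with the offset, where Kitl and Rassf3 both had an adjusted p of 0.0818.

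**Figure D4:**
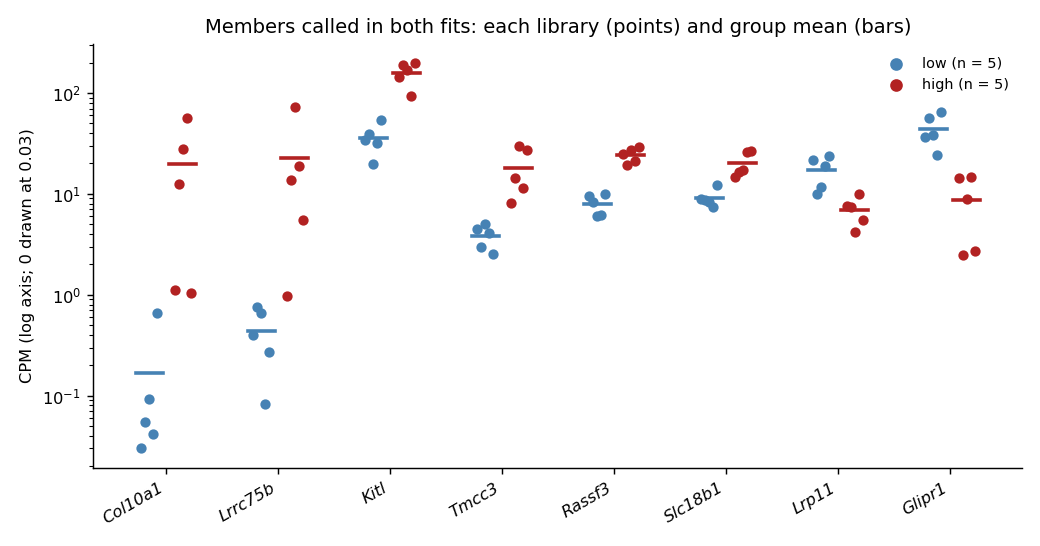
The y axis gives CPM on a log axis (0 is drawn at 0.03), the x axis the 8 named members called in both fits; points are single libraries and bars group means, red for high and blue for low (n = 5 each). The groups do not overlap in any of the 8 genes, and the high values of Col10a1 and Lrrc75b spread the most.

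Kitl encodes the ligand of the receptor tyrosine kinase Kit, a survival and growth factor for germ, blood and pigment cells. Its level was 143, 189, 169, 93.2 and 197 CPM in high 1 to high 5, and 34.0, 39.5, 19.7, 32.1 and 53.8 CPM in low 1 to low 5. All 5 high clones lay above all 5 low clones, also high 1 and high 2, whose chromosome 10 shift was within the low range. The means were 158 ± 41.8 and 35.8 ± 12.4 CPM (SD, n = 5 each), with a log2 fold change of 2.14 (SE 0.28, edgeR adjusted p = 0.0035). Beyond the chromosome it was 1.89 (SE 0.28, adjusted p = 0.0141).

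Rassf3 belongs to the Ras association domain family. It was at 24.97, 19.3, 27.4, 21.1 and 29.1 CPM in the high and 9.50, 8.25, 6.04, 6.14 and 9.95 CPM in the low libraries. The lowest high value was above the highest low value by more than the width of the low range. The log2 fold change was 1.61 (SE 0.21, adjusted p = 0.0035), and 1.33 beyond the chromosome (SE 0.19, adjusted p = 0.00961, both edgeR).

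Col10a1 encodes collagen X, a matrix protein of hypertrophic cartilage, and was off or nearly so in most low clones. It was at 1.12, 12.6, 28.0, 55.8 and 1.03 CPM in high 1 to high 5. In low 1 it had no counts, and in low 2 to low 5 it was at 0.0543, 0.0937, 0.0418 and 0.652 CPM. High 2, high 3 and high 4 were high, while high 1 and high 5 were within 2-fold of low 5. The log2 fold change was 6.86 (SE 1.39, edgeR adjusted p = 0.0252), and 6.55 beyond the chromosome (SE 1.34, adjusted p = 0.0471). The call was lost without high 3, low 1, low 2, low 3 or low 4 (adjusted p up to 0.0631), with no expression filter (0.0598) and with limma-voom (0.0798). Col10a1 overlaps Nt5dc1 on the opposite strand, whose mean level was 1.62 times its own. Since no source used here gives the strand setting of the counting, it is not known whether reads of the overlap were told apart.

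Lrrc75b, a leucine-rich repeat gene, showed a like spread among the high clones. Its level was 0.964, 13.7, 73.2, 18.7 and 5.55 CPM in high 1 to high 5 and 0.398, 0.760, 0.656, 0.0836 and 0.272 CPM in low 1 to low 5. High 1 was close to low 2 and the other 4 high clones were far above. The log2 fold change was 5.69 (SE 1.09, edgeR adjusted p = 0.0213), and 5.38 beyond the chromosome (SE 1.06, adjusted p = 0.0423). Without low 1 its adjusted p was 0.0532, and with limma-voom it was 0.0871.

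Tmcc3, a transmembrane and coiled-coil protein gene, was at 8.07, 14.3, 29.6, 11.5 and 27.5 CPM in the high and 4.50, 2.98, 5.06, 4.14 and 2.56 CPM in the low libraries. Slc18b1, a transporter gene of the vesicular amine transporter family, was at 14.7, 16.4, 17.04, 25.98 and 26.8 CPM in the high and 8.82, 8.63, 8.39, 7.48 and 12.1 CPM in the low libraries. Both were higher in all 5 high clones. Tmcc3 rose by 2.24 (SE 0.39, edgeR adjusted p = 0.0136) and by 1.89 beyond the chromosome (adjusted p = 0.0383). Slc18b1 rose by 1.15 (SE 0.23, adjusted p = 0.0226) and by 0.84 beyond the chromosome (adjusted p = 0.0437), and its first call was lost without low 1, low 2, low 3 or low 4 (adjusted p up to 0.0561).

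The 2 members that fell went against the direction of their chromosome. Glipr1, a secreted-type CAP family protein gene known as a p53 target, was at 14.4, 2.49, 8.80, 14.8 and 2.73 CPM in the high and 36.3, 56.5, 38.1, 24.1 and 64.5 CPM in the low libraries. Lrp11, of the LDL receptor-related family, was at 7.61, 7.34, 4.16, 9.89 and 5.45 CPM in the high and 21.6, 9.98, 11.6, 18.7 and 23.9 CPM in the low libraries. All high values of both genes were below all low values, for Lrp11 by a narrow margin between high 4 and low 2. Glipr1 was at -2.35 (SE 0.53, edgeR adjusted p = 0.0339), and at -2.61 beyond the chromosome (adjusted p = 0.0423). Its first call was lost without high 3, low 1, low 2, low 3 or low 5 (adjusted p up to 0.0731), and with no expression filter (0.0564). Glipr1 overlaps Krr1 on the opposite strand, of 2.00 times its mean level, and whether reads of the overlap were told apart is not known. Lrp11 was at -1.32 (SE 0.31, adjusted p = 0.037), and at -1.59 beyond the chromosome (adjusted p = 0.0494), and 3 of 10 fits that left out 1 library kept its first call (those without high 1, high 4 or low 2).

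A further 5 named members were among the 10 largest rises of the first fit and did not pass beyond the chromosome shift. Cd24a, a surface glycoprotein gene, was at 151, 365, 1163, 342 and 285 CPM in the high and 28.7, 139, 131, 65.4 and 93.0 CPM in the low libraries (log2 fold change 2.34, SE 0.57, edgeR adjusted p = 0.0441). Vsir encodes the immune checkpoint protein VISTA and rose by 1.76 (adjusted p = 0.0315), from 1.504 to 5.67 CPM in the low to 7.23 to 17.6 CPM in the high libraries. Arid5b, a DNA-binding regulator of fat cell development, was at 39.6 to 82.3 CPM in the high and 10.9 to 23.8 CPM in the low libraries (1.63, adjusted p = 0.0131). Pdxk, the kinase that activates vitamin B6, was at 33.4 to 63.8 and 12.6 to 22.5 CPM (1.39, adjusted p = 0.0135). Gamt, the last enzyme of creatine synthesis, was at 29.98 to 72.3 and 11.5 to 23.2 CPM (1.31, adjusted p = 0.0299). In all 5 the groups did not overlap, although the lowest high value of Cd24a, in high 1, was close to low 2. Beyond the chromosome their adjusted p lay between 0.0507 (Arid5b) and 0.118 (Gamt). The calls of Arid5b and Pdxk held with each library left out in turn, that of Cd24a in 2 such fits (without high 1 or high 4) and not with no expression filter (0.0954), that of Vsir in 3 (without high 1, high 4 or low 3) and that of Gamt in 5 (lost without high 3, low 2, low 3, low 4 or low 5).

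**Figure D5:**
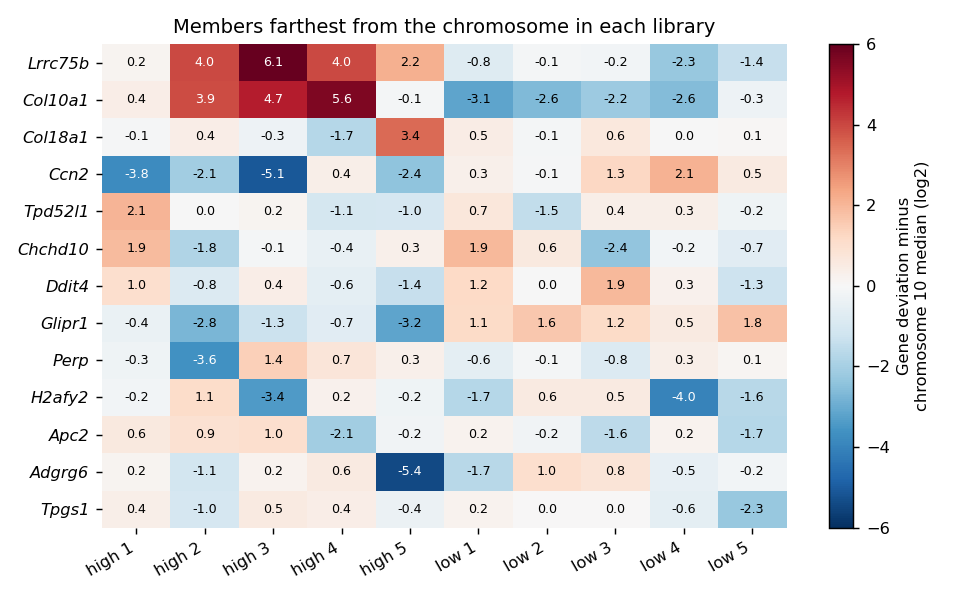
Each cell gives a member's deviation minus the chromosome 10 median of that library (log2), with the 10 libraries as columns and as rows the 13 members that were farthest above or below in at least 1 library. Lrrc75b in high 3 reaches 6.06 and Adgrg6 in high 5 reaches -5.43, while most other cells are within 2 of 0.

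Most members stayed near the chromosome median, and some strayed from it by far. A member was counted as departing in a library where its deviation was over 1 (log2, 2-fold) from that library's chromosome 10 median. Of 482 members, 106 (21.99%) departed in at least 1 library, 53 of them in 1 library only and 30 in 3 or more, and 376 (78.0%) in none. On the other chromosomes, 1694 of 9040 genes of the same kind departed (18.7%). The number per library was 35, 33, 28, 18 and 24 in high 1 to high 5 and 17, 13, 19, 22 and 23 in low 1 to low 5. High 1 and high 2, the high clones with the smallest chromosome 10 medians, had the most departing members.

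Several members were switched nearly off or far up in 1 clone. Col18a1, a basement membrane collagen that releases endostatin, was at 424 CPM in high 5 and at 11.6 to 40.6 CPM in the other 9 libraries. Adgrg6, an adhesion G protein-coupled receptor, was at 0.199 CPM in high 5 and at 2.45 to 18.3 CPM elsewhere. Perp, a membrane protein of desmosomes and a p53 target, was at 7.30 CPM in high 2 and at 51.1 to 317 CPM elsewhere. H2afy2, which encodes the histone variant macroH2A2, was at 0.878 CPM in low 4 and 1.89 CPM in high 3, and at 4.61 to 35.1 CPM in the other 8. H2afy2 and Col18a1 overlap Aifm2 and Slc19a1 on the opposite strand, of 3.57 and 0.264 times their mean level. Whether reads of these overlaps were told apart is not known.

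Ccn2, a matricellular protein also known as connective tissue growth factor, was the member farthest below the chromosome in both high 1 and high 3 and the one farthest above it in low 4. It was at 2.33, 7.17, 1.06, 53.6 and 8.28 CPM in the high and 35.4, 30.7, 70.8, 125 and 47.7 CPM in the low libraries. High 4 alone among the high clones lay within the low range. Its log2 fold change was -2.09 (SE 0.90) and did not pass (edgeR adjusted p = 0.208). Of 10 fits that left out 1 library, 1 called it, the one without high 4 (edgeR adjusted p = 0.0177). In the others the adjusted p reached 0.367.

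The stress gene Ddit4, an inhibitor of mTORC1 signalling, was at 358 CPM in low 3 and at 43.99 to 215 CPM elsewhere. Chchd10, of the mitochondrial intermembrane space, was at 25.5 CPM in low 1 and 28.8 CPM in high 1 but at 1.27 CPM in low 3 and 1.98 CPM in high 2. It overlaps Mmp11 on the opposite strand, of 4.76 times its mean level, and whether reads of the overlap were told apart is not known. Tpd52l1 was at 34.2 CPM in high 1 and 2.82 to 11.4 CPM elsewhere, Apc2 at 6.59 CPM in high 4 and 6.70 to 53.1 CPM elsewhere, and Tpgs1, of the tubulin polyglutamylase complex, at 17.6 CPM in low 5 and 39.3 to 142 CPM elsewhere. Apc2 was thus hardly lower in high 4 than in low 3, and it overlaps 2310011J03Rik on the opposite strand, of 2.95 times its mean level. None of these 5 genes passed between the groups (edgeR adjusted p between 0.288 and 0.889).

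Some of these departures were shared by adjacent members. Of 232 departures over the 10 libraries, 25 (10.8%) belonged to adjacent members that departed to the same side in the same library, in 12 instances. The share that unrelated neighbours would give was not worked out, nor that on other chromosomes, so 10.8% cannot be called low or high. Among the 4 members around each of the genes that were farthest above or below in a library, those around Col18a1 in high 5 reached 0.73 and those around Adgrg6 in the same clone -0.998 (log2). Beside Perp in high 2, its neighbour Tnfaip3, an inhibitor of NF-kB signalling, was at -1.36 and departed too. Near H2afy2 in low 4, Tysnd1 was at -1.25 and departed, while Aifm2, which lies between them, was at -0.16. Col6a2 and Col6a1, which encode chains of collagen VI, departed together in 3 of the 12 instances, above the chromosome in high 2 and high 3 and below it in low 4. Col6a1 was at 431, 1007, 1095, 325 and 390 CPM in the high and 415, 518, 499, 117 and 195 CPM in the low libraries, and Col6a2 at 262, 731, 651, 99.95 and 96.2 CPM and 240, 279, 237, 84.5 and 123 CPM. The 2 genes were both highest in high 2 and high 3 and both lowest or nearly so in low 4, and did not pass between the groups (edgeR adjusted p = 0.305 and 0.401). Ddt, Gstt3 and Gstt1, the last 2 of them paralogous glutathione transferase genes, departed upwards together in high 1. Col6a1, Col6a2, Ddt, Gstt1, Gstt3, Tnfaip3 and Tysnd1 were chosen after their values were seen.

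Members were also grouped by function, and the counts below stand beside 1.99% rises, 2.87% falls and 52.3% above 0 among all genes tested. Of all 482 members, 26 rose, 2 fell, 87.1% were above 0 and 21.99% departed, with a median log2 fold change of 0.29. Beyond the chromosome, the medians were -0.04 (mitochondrial), -0.03 (cell cycle and p53), 0.67 (matrix) and -0.14 (signalling). They were -0.04 for transcription and chromatin, -0.14 for protein folding, the endoplasmic reticulum and redox control, and -0.25 for translation. Of 27 genes of mitochondrial proteins, 0 passed in either fit, with a median log2 fold change of 0.26 and 23 of 27 above 0, against 0.02 over all genes tested. Those with the smallest p were Qrsl1, a subunit of the mitochondrial glutamyl-tRNA amidotransferase (0.72, adjusted p = 0.115), Cisd1, an iron-sulfur protein of the outer membrane (0.67, adjusted p = 0.13), and Uqcr11 of complex III (0.58, adjusted p = 0.131, all edgeR). Cisd1 was at 34.5, 40.5, 70.0, 68.3 and 69.5 CPM in the high and 22.7, 41.4, 40.3, 34.4 and 38.6 CPM in the low libraries. It was thus high in high 3, high 4 and high 5 alone, the same 3 clones in which the chromosome was highest. Atp5b, the catalytic beta subunit of ATP synthase, was at 939, 1365, 2031, 2282 and 2497 CPM in the high and 1359, 1953, 1932, 1762 and 2216 CPM in the low libraries, and overlapped fully between the groups (log2 fold change -0.02, adjusted p = 0.982).

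Of 21 cell cycle and p53 pathway genes, 1 rose and 0 fell, with a median of 0.27 and 19 above 0. The 1 was Cdk19, a kinase of the Mediator complex, at 74.8, 77.8, 150, 67.4 and 89.1 CPM in the high and 51.7, 56.7, 39.0, 35.9 and 40.8 CPM in the low libraries (1.03, SE 0.23, edgeR adjusted p = 0.0321). All 5 high values were above the low ones, with high 3 apart from the others, and the call was lost without high 5, low 1, low 3, low 4 or low 5 (adjusted p up to 0.0751). Beyond the chromosome its adjusted p was 0.127. Mcm9 (0.60, adjusted p = 0.106) and Cdk17 (0.46, adjusted p = 0.157) had the next smallest p, and overlap Asf1a and Elk3 on the opposite strand, of 3.07 and 4.57 times their mean level.

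Of 9 matrix members, 8 departed from the chromosome in at least 1 library, beside 21.99% of all members, 1 rose (Col10a1), 0 fell, and their median was 0.90 with 6 above 0. Ntn4, a laminin-related netrin of basement membranes, was at 9.70 to 34.9 CPM in the high and 5.52 to 14.1 CPM in the low libraries (1.42, edgeR adjusted p = 0.0561). Of 21 signalling genes, 12 departed in at least 1 library, 1 rose (Kitl) and 0 fell, with a median of 0.20 and 13 above 0. Marcks, a substrate of protein kinase C, was at 13.5, 60.4, 30.2, 59.8 and 5.02 CPM in the high and 10.4, 9.44, 5.25, 1.92 and 8.05 CPM in the low libraries (2.27, adjusted p = 0.0753), with high 5 within the low range. Of 10 fits that left out 1 library, 1 called Marcks, the one without high 5 (edgeR adjusted p = 0.0377). In the others its adjusted p reached 0.151. Frs2, an adaptor of fibroblast growth factor receptors, was at 90.5 to 148 and 46.0 to 89.6 CPM (0.69, adjusted p = 0.0882), so that its groups did not overlap and its change did not pass.

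Genes of transcription and chromatin (14 members), of protein folding, the endoplasmic reticulum and redox control (16) and of translation (11) had 0 rises and 0 falls in either fit, and 2, 2 and 1 of them departed. Their medians were 0.27, 0.15 and 0.05, with 12, 13 and 6 above 0. The smallest p in each were those of Baz2a, a chromatin remodelling subunit (0.49, adjusted p = 0.157), Msrb3, a methionine sulfoxide reductase (0.65, adjusted p = 0.0844), and Gtf3c6, a subunit of the RNA polymerase III factor TFIIIC (0.53, adjusted p = 0.194, all edgeR). The median deviation of translation members was -0.46 in high 1, -0.36 in high 2, 0.36 in high 4 and 0.32 in high 5. All members were at 0.00, -0.12, 0.34 and 0.42 in the same clones. In high 1 the other lists lay between -0.09 (mitochondrial) and 0.10 (transcription and chromatin). In high 2 they lay between -0.43 (protein folding, the endoplasmic reticulum and redox) and 0.17 (matrix), with signalling at -0.37. Translation members were at -0.34 in low 1 and 0.31 in low 5, and all members at -0.20 and 0.00.

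The 5 most abundant members were Eef2, the elongation factor that moves the ribosome along, Atp5b, Psap, Rps15 and Bsg. Eef2 was at 2760, 3564, 3664, 4690 and 5093 CPM in the high and 2833, 4072, 3921, 3690 and 4548 CPM in the low libraries, a mean of 1168 CPM per kilobase of exon. It was highest in high 5 and high 4, lowest in high 1 and low 1, and did not pass between the groups (log2 fold change 0.05, edgeR adjusted p = 0.917). Rps15, a ribosomal protein gene, was the highest of the 5 per kilobase, at 2390 CPM per kilobase. Psap, the precursor of lysosomal saposins, was at 1330 to 2015 CPM in the high and 861 to 1351 CPM in the low libraries (0.52, adjusted p = 0.104), and Bsg, a surface glycoprotein gene, at 687 to 1483 and 905 to 1410 CPM (0.14, adjusted p = 0.781).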

How the data were processed

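Gene counts came from the deposited table of raw read counts, prepared by the authors with a column for each library. Tools listed in the submitters' processing notes are R 4.2.1, STAR 2.7.8a and DESeq2 1.36.0, without their roles, and the build is GRCm38 (mm10). No source used here gives the counting tool or its strand setting. The kit was directional and selected poly(A) RNA, per the labels' protocols. The deposited normalized table and sample sheet were not used. Genes were placed with GENCODE M21, an assumed release, and 195 identifiers without a match held at most 0.0701% of a library's counts. The members, gene lists and tests were chosen with earlier results of these data known.

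All 10 libraries entered each fit, with the group as the only term. After edgeR's default expression filter, 12964 genes were scaled by TMM and tested by two-sided robust quasi-likelihood F-tests (edgeR 4.0.16, R 4.3.3), with Benjamini-Hochberg adjustment over all of them and a threshold of 0.05. The SE is the log2 fold change over the root of F. In the second fit, the median deviation of the gene's chromosome in that library was added to the log library size. Deviations used log2 CPM (prior count 2), and CPM are TMM-scaled (the minimum of 8 CPM used raw totals). Labels give the populations as biological replicates, and p-values measure the spread between them. Both fits were run on simulated data with known changes. The simulation gave all genes the same base spread and shifted chromosome 10 alone, unlike these clones.

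Named genes are, among members, the 10 largest rises and falls called, up to 8 each way in the second fit, the member farthest above and below in each library, the 3 smallest p of each list, the 5 highest means and the genes next to the minimum. Genes with provisional names are counted only. Alternatives tried were scaling by upper quartile, by RLE or without chromosomes 6, 8, 10, 14 and mtDNA, other filters, other CPM minimums, references and prior counts, other window sizes, the replicate number as a block, each library left out, DESeq2 1.42.0 and limma-voom 3.58.1. Figures used matplotlib 3.10.9 in Python 3.11.15.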

Additional observations from a re-analysis of the deposited data

Results flagged for a closer look

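In 9 of 92 groups of 5 libraries examined, 1 library's level of a named member stood apart from the 4 others of its group by Dixon's criterion, which chance meets in about 1 of 20 groups. That rate does not apply to these genes as a set, since several of them, such as Tpd52l1, Lrrc75b, Ccn2, Col18a1 and Col10a1, were among those farthest from the chromosome in a single library. In high 3 these were Cd24a (1163 CPM, against 151.3 to 365.1 CPM in the other 4 high libraries), Cdk19 (149.9 CPM, against 67.42 to 89.15 CPM) and Lrrc75b (73.23 CPM, against 0.964 to 18.67 CPM). In high 5 they were Col18a1 (424.3 CPM, against 11.56 to 36.33 CPM) and Mcm9 (27.06 CPM, against 15.29 to 18.25 CPM). Tpd52l1 stood apart in high 1 (34.15 CPM, against 4.886 to 10.66 CPM) and Ccn2 in high 4 (53.63 CPM, against 1.058 to 8.276 CPM). In low 5, Col10a1 (0.6525 CPM, against 0 to 0.0937 CPM) and Slc18b1 (12.13 CPM, against 7.481 to 8.82 CPM) were higher than in the other low libraries. In all 9 cases the library that stood apart was the highest of its group. The criterion was applied to CPM without logs, where a low value is rarely flagged. Adgrg6 in high 5 (0.199 CPM) and Perp in high 2 (7.30 CPM) were not flagged, at -5.43 and -3.65 (log2) from the chromosome median. The groups examined included those of the chromosome 10 shift, which gave no flag.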

How the results depend on the processing

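The high-minus-low difference of the chromosome 10 shift kept its direction in all alternatives run (0.23 to 0.35 over the 10 fits that left out 1 library), and among windows with at least 20 members (6 of 5 Mb, 11 of 10 Mb and 7 of 20 Mb) the share above 0 was 100% in high 3, high 4 and high 5 and 0% in high 2, low 1 and low 4. No called gene changed direction, while some uncalled ones did: Col18a1 was at 1.74 and at -0.29 without high 5. With 1 library left out, the rises among members ran from 8 to 34 and the falls from 0 to 3, and beyond the chromosome shift the rises ran from 2 to 9 and the falls from 0 to 5. DESeq2 called 54 rises, and it called all 28 members that edgeR called, while limma-voom shared 23 of the 28. Without the 2 libraries rich in Gm42418, an alternative chosen after seeing the data as was the shift minus the other chromosomes (0.30), 2 rises and 0 falls were called, and 0 and 0 beyond the chromosome shift. The falls were 1 with no filter, with members at 16 CPM or more and with the replicate block, and beyond the chromosome shift 1 with upper-quartile scaling, no filter, an offset from genes at 16 CPM or more and the replicate block. The cause was not tested, beyond there being fewer samples or other genes in the fit. Replicate numbers do not pair the libraries: same-numbered ones correlated at -0.05 to 0.46 in their deviations, and only numbers 1 and 5 correlated best with their own. With the replicate block 28 members were called, of which 19 were among the 28, and the calls of Col10a1 (adjusted p = 0.0666), Glipr1 (0.088) and Cdk19 (0.0547) were lost. Beyond the chromosome shift, the block kept Kitl and Rassf3 alone of the 8 named calls (the other 6 at 0.0703 to 0.111), and no filter lost Col10a1, Lrrc75b, Slc18b1 and Glipr1 (0.0587 to 0.0908). Over single genes' values and single libraries' chromosome 10 shifts together, 878 were counted as the same. For a gene this means its side of the threshold, and for a shift a move of less than its group's SD. Of the gene values, 133 lost a call and 12 gained one. Low counts limit Col10a1 and Lrrc75b in the low libraries most.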
